A study of Rattus norvegicus with 4 samples.

Results

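NRF2-linked antioxidant and glutathione genes were examined in rat liver RNA taken 12 h after alpha-naphthylisothiocyanate (ANIT), a bile duct toxicant, or after its vehicle, olive oil. The set comprised 10 genes, chosen by symbol: the peroxidase gene Gpx2, the quinone reductase gene Nqo1, the autophagy receptor gene Sqstm1, the glutathione transferase genes Gstm5, Gstm7 and Gsta2, the superoxide dismutase genes Sod1 and Sod2, and the aldehyde-metabolising genes Aldh1a1 and Akr1a1. All 10 were measured, by 13 of the 1648 gene spots, and they made up 10 of 958 named genes and of 1174 features in all. Sod1 had 3 spots, Sod2 had 2, and each of the other 8 genes had 1.

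The rats were male Sprague-Dawley animals weighing between 250 and 300 g. The treated rats received 75 mg/kg of ANIT intraperitoneally, as a 7.5 mg/mL solution in olive oil, and the controls received as much oil alone. RNA from the right lateral liver lobe of 3 rats per treatment was pooled before labelling, and both pools were hybridised together on each of 4 spotted cDNA arrays. On arrays 1 and 3 the ANIT pool was labelled with Cy5, and on arrays 2 and 4 with Cy3. The labels name a single pooling step and no separate pool for any array, so the p-values below measure the spread between hybridisations, not between rats. In pooled whole liver, fewer cells of a type and less RNA per cell cannot be told apart.

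NRF2 is a transcription factor that is held in the cytoplasm by KEAP1 and degraded. Reactive compounds that modify KEAP1 release it, and it then binds antioxidant response elements near genes for quinone reduction, peroxide removal and glutathione conjugation. In liver, glutathione transferases of the alpha and mu classes are abundant hepatocyte enzymes that join glutathione to electrophiles. Superoxide dismutases turn superoxide into hydrogen peroxide, in the cytosol for Sod1 and in mitochondria for Sod2. Sqstm1 encodes p62, which delivers cargo to autophagosomes and also binds KEAP1. Gpx2, Nqo1 and Sqstm1 were taken as the inducible genes and the transferases and dismutases as the constitutive ones. Gsta2 is itself known as an NRF2 target in rat liver, so that division is one of convenience.

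The values are log ratios of the channels of an array, and neither the base of the logarithm nor the direction of the ratio is given in the sources used here. The median over the gene spots of an array was subtracted from it, so a value of 0 is the median gene spot and values are in log units of unknown base. No level of any transcript can be read from a ratio. The comparison asked which of these genes differed between ANIT and olive oil, and it was taken in a pair of components. The mean over dye orientations is the treatment difference if every array holds the same treatment over the other. The labels name ANIT as channel 2 on every array, whichever its dye, so a ratio taken by channel number would be of this kind. They do not say whether the ratio was taken by channel number or by dye. As deposited, the gene-spot medians were -0.765 and -0.72 on arrays 1 and 3, and 0.32 and 0.30 on arrays 2 and 4. Some spots without annotation split by orientation too. Position 111 of the blocks had medians of -1.65, 1.20, -1.72 and 1.22 on arrays 1 to 4. At 3 positions the medians were within 0.05 of 0 on every array. What those spots hold is not known, and which reading applies was not tested. The orientation contrast is the mean of arrays 1 and 3 minus the mean of arrays 2 and 4, divided by 2, and it is the treatment difference if every array holds the same dye over the other. Across the 1648 spots, which are no independent replicates, arrays of like orientation correlated at r = 0.95 and arrays of unlike orientation at r between -0.91 and -0.88. Because the direction is open, sides are given as positive and negative and never as more or less transcript after ANIT.

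To show where NRF2's recognition sequence lies beside these genes, promoters were taken from RefSeq (rat build GRCr8), from 250 bases before to 50 bases after the annotated transcript start. All 10 members matched that table by symbol. The core of the antioxidant response element was searched as TGACNNNGC on both strands, and the TATA box as TATAAA on both strands. The inducible genes are shown because they include both members past the threshold, and Gstm5 and Gstm7 because they are close relatives whose means had opposite signs without passing. Capitals mark the matches, with 9 bases for the element core and 6 for the TATA box. The windows are chr6:101229984-101230283 for Gpx2, chr19:52220218-52220517 for Nqo1, chr10:35037701-35038000 for Sqstm1 and chr2:198260270-198260569 for Gstm7, all on the minus strand, and chr2:198219519-198219818 on the plus strand for Gstm5. Each is written 5′ to 3′ on the strand of its gene.
Gpx2: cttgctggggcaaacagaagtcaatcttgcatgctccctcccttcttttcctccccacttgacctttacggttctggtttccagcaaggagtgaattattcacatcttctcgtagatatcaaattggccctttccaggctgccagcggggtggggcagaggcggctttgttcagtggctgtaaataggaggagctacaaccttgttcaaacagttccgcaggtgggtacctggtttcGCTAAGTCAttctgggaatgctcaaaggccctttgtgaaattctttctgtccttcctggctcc
Nqo1: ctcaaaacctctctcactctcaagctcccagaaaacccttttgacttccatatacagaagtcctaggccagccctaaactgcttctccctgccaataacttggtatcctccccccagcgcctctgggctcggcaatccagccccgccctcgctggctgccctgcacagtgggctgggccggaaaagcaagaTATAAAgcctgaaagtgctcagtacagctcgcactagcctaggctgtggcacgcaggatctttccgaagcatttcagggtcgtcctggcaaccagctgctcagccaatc
Sqstm1: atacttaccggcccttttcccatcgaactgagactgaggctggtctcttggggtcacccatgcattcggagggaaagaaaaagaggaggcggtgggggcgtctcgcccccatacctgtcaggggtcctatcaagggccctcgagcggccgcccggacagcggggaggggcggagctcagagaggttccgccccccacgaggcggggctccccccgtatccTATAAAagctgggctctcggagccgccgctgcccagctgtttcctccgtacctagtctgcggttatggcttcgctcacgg
Gstm5: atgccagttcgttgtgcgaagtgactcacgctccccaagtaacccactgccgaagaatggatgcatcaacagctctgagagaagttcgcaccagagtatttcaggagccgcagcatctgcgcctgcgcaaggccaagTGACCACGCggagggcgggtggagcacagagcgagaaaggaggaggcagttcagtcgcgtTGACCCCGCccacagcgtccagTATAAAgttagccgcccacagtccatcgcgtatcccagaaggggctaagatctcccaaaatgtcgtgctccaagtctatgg
Gstm7: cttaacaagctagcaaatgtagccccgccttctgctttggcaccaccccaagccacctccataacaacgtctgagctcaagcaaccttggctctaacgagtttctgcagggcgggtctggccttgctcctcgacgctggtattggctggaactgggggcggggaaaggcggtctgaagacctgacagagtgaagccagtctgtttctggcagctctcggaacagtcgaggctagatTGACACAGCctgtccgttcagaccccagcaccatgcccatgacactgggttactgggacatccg

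The Gpx2 window held 1 element core, TGACTTAGC read on the opposite strand, at positions -13 to -5 counted from the transcript start. The windows of Nqo1 and Sqstm1 held none, which says only that these letters are not in these 300 bases. Gstm5 held 2 cores, TGACCACGC at -113 to -105 and TGACCCCGC at -53 to -45, and Gstm7 held 1, TGACACAGC at -14 to -6. Gsta2 and Sod2 held 1 core each. In all 5 of 10 members had a match, against 12.1% of 33469 promoters of the same length and 14.5% of 844 promoters of named genes on the array. The 5 members with a match had means over dye orientations of 0.33 (Gpx2), 0.13 (Gstm5), -0.068 (Gsta2), -0.090 (Gstm7) and -0.10 (Sod2), so matches occurred on either side of 0. A TATA box was found in 4 members, Nqo1, Sqstm1, Gstm5 and Sod1, against 14.2% of all promoters.

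Among the inducible genes, Gpx2 stood on the positive side and Sqstm1 on the negative side of the median gene spot, both past an adjusted p of 0.05 in limma, as were 3.92% of the 1174 features, and Nqo1 was positive without passing. Gpx2, a selenium-dependent peroxidase known mainly from epithelia of the gut, had centred log ratios of 0.51, 0.23, 0.31 and 0.28 on arrays 1 to 4. All 4 arrays were positive, the arrays with ANIT on Cy5 slightly above the others and array 1 the highest. Its mean over dye orientations was 0.33 ± 0.047 (SE, n = 4 arrays; limma with a dye effect, adjusted p = 0.0056). It ranked 4 from the top among all features. The difference would be 1.26-fold if the logarithm has base 2 and 2.15-fold if it has base 10.

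Sqstm1 had centred log ratios of 0.28, -0.82, 0.31 and -0.80 on arrays 1 to 4. The arrays with ANIT on Cy5 were positive and those with ANIT on Cy3 strongly negative, with close agreement within each orientation. A split by orientation was usual on these arrays: 86.5% of features passed in the contrast, 40.6% on the positive side. Its mean over dye orientations was -0.26 ± 0.039 (SE, n = 4; limma, adjusted p = 0.0081), and its orientation contrast was 0.55 ± 0.039 (limma, adjusted p = 1.80e-06). The calls on Gpx2 and Sqstm1 rest on the dye term in the fit, since without it neither passed and 0 of 1174 features did (5 at an unadjusted p under 0.05).

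Nqo1, which reduces quinones by a 2-electron step and is a standard reporter of NRF2 activity, had centred log ratios of 0.14, 0.17, 0.38 and 0.10. All 4 arrays were positive and the orientations overlapped. Its mean was 0.20 ± 0.049 with a 95% interval of 0.086 to 0.31 (SE, n = 4; limma, adjusted p = 0.0697). The interval before adjustment excludes 0, but the gene did not pass over all features. Array 3 was the highest, and without it the mean was 0.14, against 0.26 without array 1 and 0.22 without array 4. The gene passed narrowly with equal spread on each array (0.20, limma adjusted p = 0.0499). With print blocks centred it did not pass (0.16, limma adjusted p = 0.241), so its distance from the threshold depended on the setting.

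Differences between genes on the same array do not depend on a single value subtracted from the whole array. They do change when print blocks are centred separately, which put Gpx2 at 0.25, Nqo1 at 0.16 and Sqstm1 at -0.29 in the mean. The differences below are without that step. Gpx2 exceeded Sqstm1 by 0.24, 1.05, 0.0025 and 1.08 on arrays 1 to 4, a mean of 0.59 with a residual SD of 0.12 after the dye effect. The pair thus stood level on array 3 and far apart on both arrays with ANIT on Cy3. Nqo1 exceeded Sqstm1 by 0.46 in the mean (residual SD 0.11), with array 1 at -0.13. Gpx2 exceeded Nqo1 by 0.14, less than the residual SD of 0.23, so these 2 inducible genes were not separated.

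**Figure D1:**
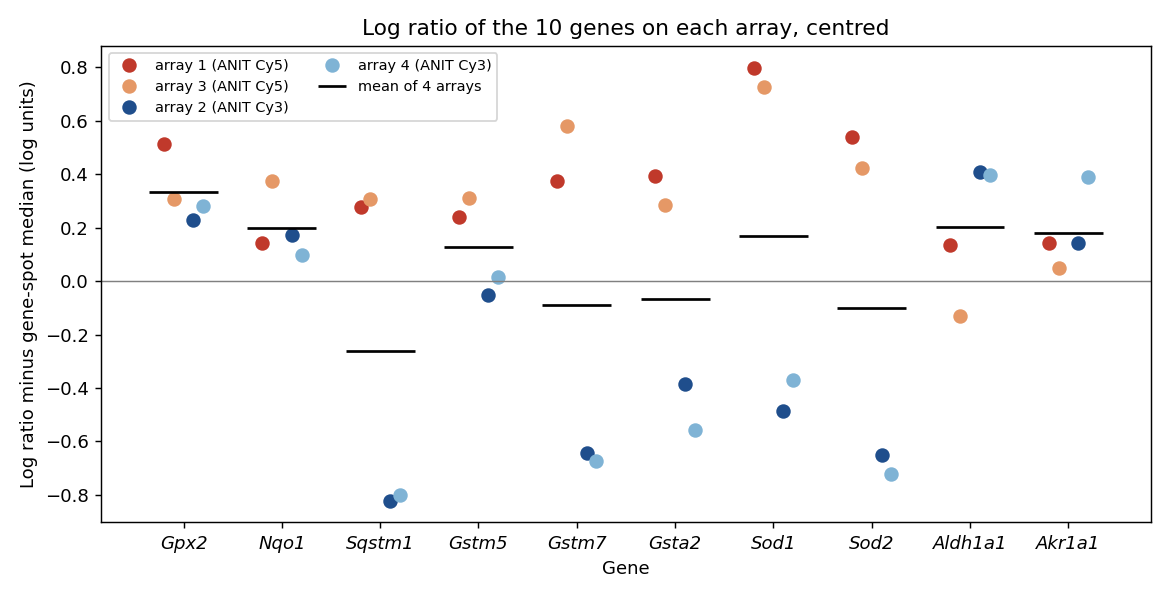
Centred log ratio (log units, y axis) of each of the 10 genes (x axis) on the 4 arrays, with red and orange points for arrays with ANIT on Cy5, blue points for ANIT on Cy3 and a black bar for the mean. Gpx2, Nqo1 and Akr1a1 are above 0 on all 4 arrays, while Sqstm1, the dismutases, Gstm7 and Gsta2 are positive with ANIT on Cy5 and negative with ANIT on Cy3.

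None of the 5 constitutive genes passed in the mean over dye orientations in limma, where 3.92% of features passed. At an unadjusted p under 0.05 there were 3 (Gstm5, Sod1 and Sod2), against 16.9% of features. Of the glutathione transferase genes, Gstm5 had a positive mean and Gstm7 and Gsta2 negative ones, none past the threshold. Gstm5, a mu-class transferase, had centred log ratios of 0.24, -0.054, 0.31 and 0.013 on arrays 1 to 4, higher on both arrays with ANIT on Cy5. Its mean was 0.13 ± 0.041 (SE, n = 4; limma, adjusted p = 0.154).

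Gstm7, of the same class, had 0.37, -0.64, 0.58 and -0.67, again higher on both arrays with ANIT on Cy5 and with a wider gap. Its mean was -0.090 ± 0.046 (SE, n = 4; limma, adjusted p = 0.358). Within arrays Gstm5 minus Gstm7 was -0.13, 0.59, -0.27 and 0.69, a mean of 0.22 with a residual SD of 0.084. With print blocks centred the genes were closer, at 0.045 for Gstm5 and -0.069 for Gstm7, and without array 1 Gstm7 stood at -0.039. The 2 genes lie on chromosome 2 of GRCr8 with 1 gene between them, another of the Gstm family. Mu-class transcripts are alike in sequence, so a cDNA spot named for one may also bind the others, and these values are uncertain to that extent.

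Gsta2, an alpha-class transferase, had 0.39, -0.39, 0.28 and -0.56. Both arrays with ANIT on Cy5 were above 0 and both with ANIT on Cy3 below it. The mean was -0.068 ± 0.046 with a 95% interval of -0.17 to 0.037 (SE, n = 4; limma, adjusted p = 0.502), and it was -0.025 without array 4. Rat liver expresses several closely related alpha-class genes, and the same limit on the identity of the spot holds.

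The dismutases stood on opposite sides in the mean and at nearly the same place in the orientation contrast. Sod1, the copper and zinc enzyme, averaged 0.80, -0.49, 0.73 and -0.37 on arrays 1 to 4. The orientations were far apart, and the positive arrays outweighed the negative ones, with a mean of 0.17 ± 0.042 (SE, n = 4; limma, adjusted p = 0.0739). Its 3 spots, which lie in different print blocks, had means of 0.14, 0.16 and 0.19 and were alike. Among all spots taken singly, the spot at 0.19 passed (limma adjusted p = 0.0426) and the others did not. Sod1 passed without array 2 (0.20), with equal spread (0.18) and with blocks centred (0.19; limma, adjusted p between 0.0306 and 0.0489 over these), and missed the threshold without array 1, 3 or 4.

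Sod2, the manganese enzyme of mitochondria, averaged 0.54, -0.65, 0.42 and -0.72. The mean was -0.10 ± 0.042 (SE, n = 4; limma, adjusted p = 0.264). Its 2 spots had means of -0.18 and -0.024. Over the array the SD of a single spot within its gene was 0.080, and a gap between 2 spots varies more than that. Sod1 exceeded Sod2 on every array, by 0.26, 0.17, 0.30 and 0.35, with a mean of 0.27 and a residual SD of 0.094. The difference between the dismutases was thus nearly free of the dye orientation, with a contrast of 0.012.

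The aldehyde-metabolising genes had positive means that did not pass with all 4 arrays. Aldh1a1, which oxidises retinal and other aldehydes, had 0.14, 0.41, -0.13 and 0.40 on arrays 1 to 4. It was the member in which both arrays with ANIT on Cy3 exceeded both with ANIT on Cy5. Of all features 45.8% passed on that side of the orientation contrast. Its mean was 0.20 ± 0.050 (SE, n = 4; limma, adjusted p = 0.0697). It passed without array 2, 3 or 4 (limma, adjusted p between 0.0256 and 0.0288) and as a single spot among all spots (0.0464), but stood at 0.14 without array 1 (0.252).

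Akr1a1, an aldehyde reductase of the cytosol, had 0.14, 0.14, 0.050 and 0.39, all positive, with array 4 the highest. Its mean was 0.18 ± 0.051 (SE, n = 4; limma, adjusted p = 0.101). Aldh1a1 minus Akr1a1 averaged 0.022 with a residual SD of 0.16, so the pair was not separated. Akr1a1 stood at 0.24 and passed without array 2 (limma, adjusted p = 0.00319), but at 0.12 without array 4 (adjusted p = 0.432), and leaving out array 1 or 3 gave no call either.

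In order of the mean over dye orientations, the members ran from Gpx2 through Aldh1a1, Nqo1, Akr1a1, Sod1, Gstm5, Gsta2, Gstm7 and Sod2 to Sqstm1. Neighbours differed by more than the residual SD of their within-array difference at 3 steps: Gpx2 to Aldh1a1 (0.13), Gstm5 to Gsta2 (0.20) and Sod2 to Sqstm1 (0.16). The 5 genes from Aldh1a1 to Gstm5 and the 3 from Gsta2 to Sod2 were each not separated from step to step.

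Altogether 2 of 10 members passed in the mean over dye orientations, 1 on each side, where 3.92% of the 1174 features passed (1.62% positive, 2.3% negative). At an unadjusted p under 0.05 in limma 8 members stood, against 16.9% of features. The members were chosen with earlier results of these data known, so nothing is read from those shares. Positive means were found in 6 members and in 52.6% of features, and the median over the members was 0.15 against 0.0042 over all features. Gpx2, Nqo1 and Akr1a1 were positive on all 4 arrays, as were 1.28% of features, and no member was below the median on all 4, as were 1.53%.

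The inducible genes had a median of 0.20 and the constitutive genes a median of -0.068 in the mean over dye orientations, a difference of 0.26. That median is the value of Nqo1, and the inducible genes held both the highest and the lowest member, so the division did not order the 10 genes. Per array the inducible minus the constitutive median was -0.12, 0.66, -0.12 and 0.66. It was negative with ANIT on Cy5 and positive with ANIT on Cy3, and nearly equal within each orientation. In the orientation contrast the inducible median was 0.077 and the constitutive median 0.57, a difference of -0.49. The medians fell on different genes from array to array, so this value need not follow from the per-array differences. The contrast did not split by class either: Sqstm1 (0.55) lay among the constitutive genes and Gstm5 (0.15) nearer the other inducible ones.

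**Figure D2:**
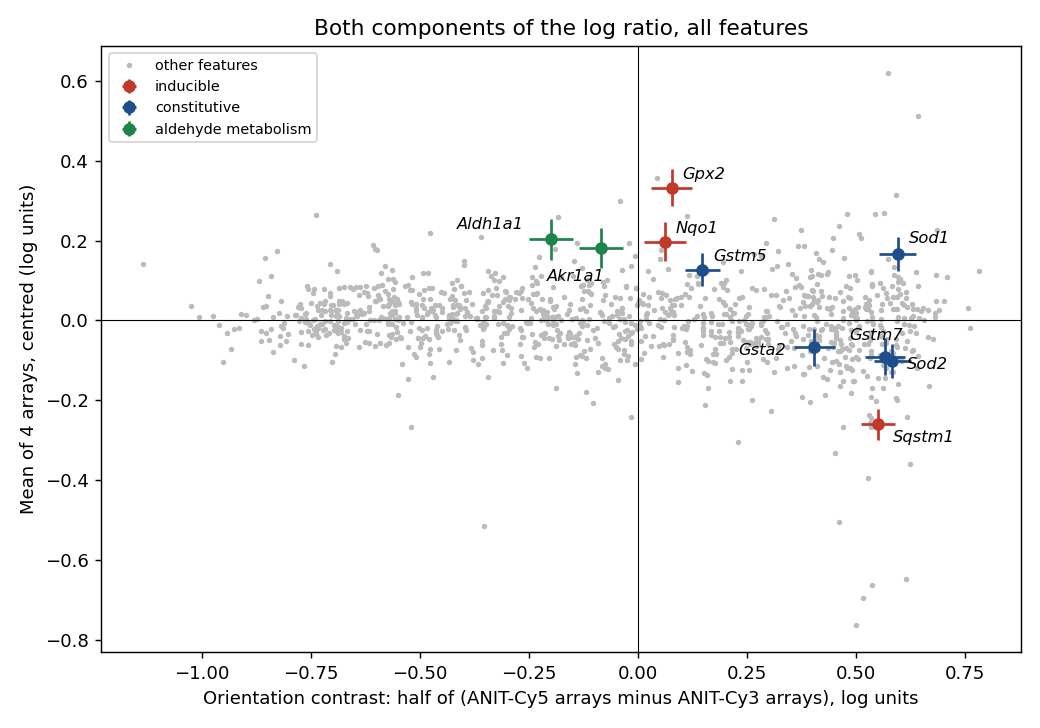
Mean over dye orientations (log units, y axis) against the orientation contrast (log units, x axis) for all 1174 features, with the 10 members in colour and bars of 1 SE. Gpx2, Nqo1, Gstm5, Aldh1a1 and Akr1a1 lie within 0.25 of a contrast of 0. Sqstm1, Sod1, Sod2, Gstm7 and Gsta2 lie at contrasts of 0.40 to 0.60, where the means of all features spread more widely.

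The orientation contrast divided the members into 2 sets by value. Sod1 (0.60), Sod2 (0.58), Gstm7 (0.57), Sqstm1 (0.55) and Gsta2 (0.40) lay high. Gstm5 (0.15), Gpx2 (0.077), Nqo1 (0.062), Akr1a1 (-0.085) and Aldh1a1 (-0.20) lay within 0.25 of the median gene spot. In limma 7 of the 10 passed in this component, all but Gpx2, Nqo1 and Akr1a1, against 86.5% of features (40.6% positive, 45.8% negative), so passing here sets no member apart. If each array holds the same dye over the other, Sod1, Sod2, Gstm7, Sqstm1, Gsta2 and Gstm5 differed between the treatments in one direction and Aldh1a1 in the other, while Gpx2, Nqo1 and Akr1a1 did not pass. With print blocks centred, Aldh1a1 (-0.0020, limma adjusted p = 0.968) and Gstm5 (0.033, 0.42) no longer passed in the contrast, and Nqo1 (0.18, 0.0226) and Akr1a1 (-0.20, 0.00674) did. Under the other reading Gpx2 and Sqstm1 differed, in opposite directions. With arrays centred, the call on Gpx2 therefore belongs to 1 reading, and Sqstm1 passed in both, as it did with print blocks centred. As deposited, 6 members passed in the contrast, all negative, against 80.9% of features: Gpx2, Nqo1, Gstm5, Gsta2, Aldh1a1 and Akr1a1. Sqstm1 stood at 0.026 there and did not (limma, adjusted p = 0.518).

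The spread of the mean depended on the contrast over the array as a whole. Among the 379 features with a contrast above 0.25 the SD of the mean was 0.13 and 10% passed, and this range holds Sqstm1, Sod1, Sod2, Gstm7 and Gsta2. Among the 364 features within 0.25 of 0 the SD was 0.084 and 1.65% passed, and this range holds the other 5 members. Gpx2 ranked 2 from the top in its range, and Sqstm1 ranked 12 from the bottom in its own. Brightness of the spots is not known here, and its part in these patterns was not tested.

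Position on the slide moved with the members too. Gpx2, Gstm5 and Akr1a1 lie in the same print block, the 8th of 16, whose gene spots had the highest block median of the mean, at 0.066 in a range of -0.062 to 0.066. With each block centred on its own median, Gpx2 stood at 0.25 and missed the threshold (limma, adjusted p = 0.0623), Gstm5 at 0.045 and Akr1a1 at 0.099, whereas Sqstm1 stood at -0.29 and passed.

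The position of 0 decided the side of 5 members. As deposited, without centring, Gpx2 was the 1 member on the positive side, at 0.12 (limma, adjusted p = 0.029), and 0.341% of features passed as positive there against 90% as negative. Nqo1 (-0.018), Aldh1a1 (-0.012), Akr1a1 (-0.034), Sod1 (-0.049) and Gstm5 (-0.088) turned negative without passing. Sqstm1 (-0.48), Sod2 (-0.32), Gstm7 (-0.31) and Gsta2 (-0.28) passed on the negative side.

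On that scale Sqstm1 was at -0.49, -0.50, -0.41 and -0.50 on arrays 1 to 4, nearly the same whichever dye ANIT RNA carried. Sod2 was at -0.23, -0.33, -0.29 and -0.42, and Gstm7 at -0.39, -0.32, -0.14 and -0.37. Gsta2 was at -0.37, -0.066, -0.43 and -0.26. These 4 members were below 0 on all 4 arrays, as were 22.5% of features. Sod1 stayed near 0, at 0.033, -0.17, 0.012 and -0.074. Gpx2, in contrast, ran from -0.41 on array 3 to 0.58 on array 4, and its sign followed the dye. Which members missed the threshold in the orientation contrast thus depended on the zero: Gpx2, Nqo1 and Akr1a1 with arrays centred, Gpx2, Gstm5 and Aldh1a1 with print blocks centred, and Sqstm1, Gstm7 and the dismutases as deposited.

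**Figure D3:**
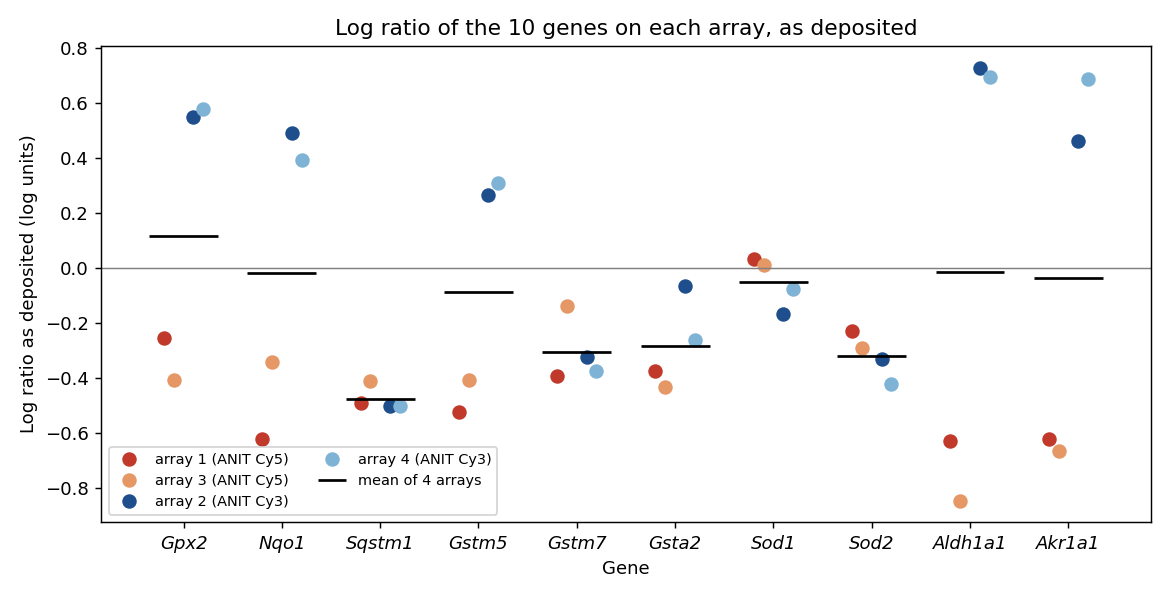
Log ratio as deposited (log units, y axis) of the 10 genes (x axis) on the 4 arrays, in the same colours, with a black bar for the mean. The 4 points of Sqstm1 sit between -0.50 and -0.41, whereas those of Aldh1a1 run from -0.84 to 0.73 and follow the dye.

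Among the other genes of the pathway, 1 passed in the mean over dye orientations and most passed in the orientation contrast, in each case at about the rate of all features. Of 110 genes listed for NRF2, glutathione, thioredoxin, detoxification, export, NADPH supply and heme and iron handling, 28 were measured. In limma 1 of the 28 passed on the negative side and 0 on the positive side, with 2 and 0 at an unadjusted p under 0.05, where 3.92% of all features passed. In the orientation contrast 26 of the 28 passed, where 86.5% of features did, and their median contrast was 0.33. That gene was Mt1, the metal-binding protein metallothionein 1, at -0.70 ± 0.041 (SE, n = 4; limma, adjusted p = 4.42e-05), the same side as Sqstm1. The median of the 28 was 0.016 against 0.0042 over all features. With Mt1 set aside, their means lay between -0.13 and 0.10, inside the range of the members.

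By role and in the mean over dye orientations, the largest of the 7 measured peroxidases, peroxiredoxins and other dismutases was Gpx1, the main cytosolic glutathione peroxidase, at 0.073. Gpx1, Gpx3 and Gpx4 had means of 0.073, 0.022 and 0.063, all below the 0.33 of Gpx2. Among 4 further transferases (Gstm2, Gstt1, Gsto1 and Mgst1) means lay between -0.031 and 0.033, and Gsto1 was the largest. Txn1, the cytosolic thioredoxin, stood at 0.10, and its orientation contrast of 0.60 was close to that of Sod1. Of 3 genes of glutathione synthesis and turnover, Ggt1 was the largest at 0.017, and Gclm, the modifier subunit of the rate-limiting enzyme and a known NRF2 target, stood at 0.012. Aldh9a1 stood at -0.13 among 4 aldehyde and epoxide enzymes, opposite in sign to Aldh1a1. Abcc2, the canalicular conjugate pump, stood at -0.059, Me1, which makes NADPH, at 0.036, and Cul3, the ligase scaffold that works with KEAP1, at -0.061. Outside the 10 members, none of these genes passed in the mean. In the contrast the 2 of the 28 that did not pass were Gss, a glutathione synthesis gene, and Prdx4, a peroxiredoxin gene.

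**Figure D4:**
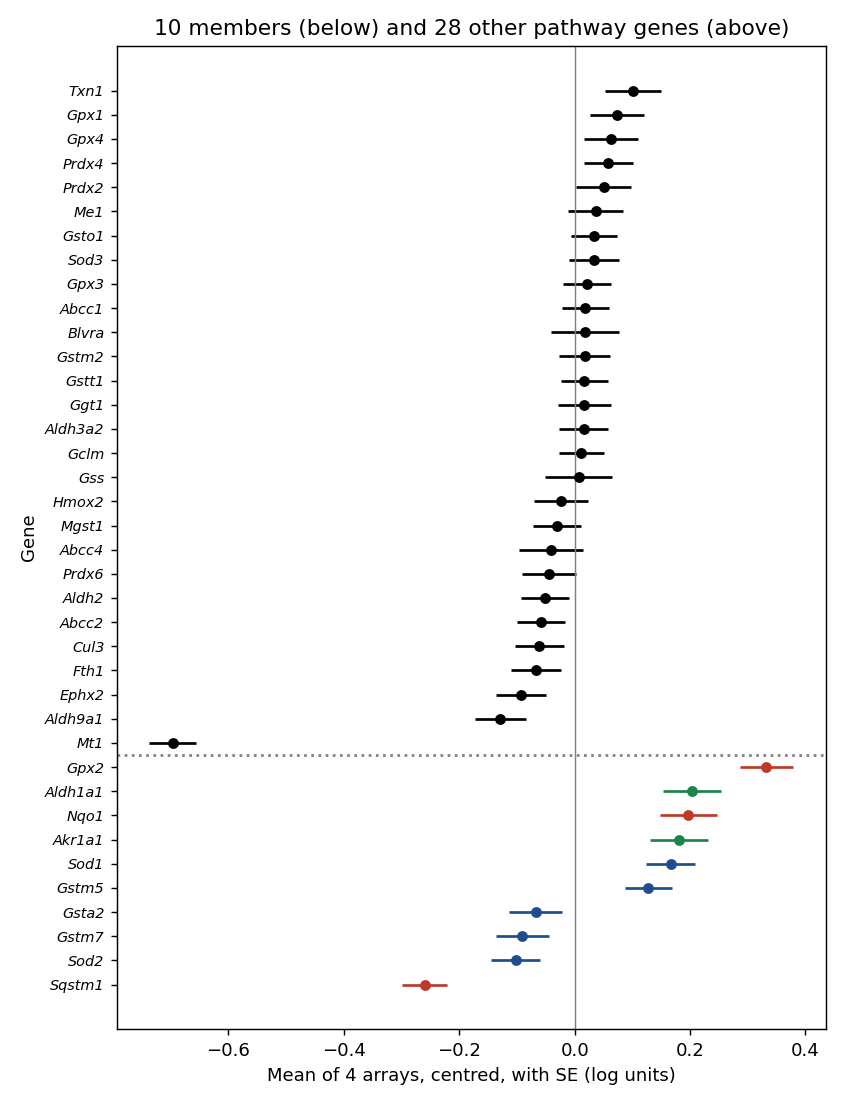
Mean over dye orientations with its SE (log units, x axis) for the 10 members in colour below the dotted line and the 28 other pathway genes in black above it, one gene per row. Apart from Mt1 at -0.70, the other pathway genes lie between -0.13 (Aldh9a1) and 0.10 (Txn1). Among the 1174 features these limits rank 1111 and 114 from the top. Outside that range lie 7 of the members, which were chosen with earlier results known, so nothing is read from that count.

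The genes with the most similar values were sought over the 4 centred arrays among named genes outside the set, by Euclidean distance. Nearest to Gpx2 were Ptma, which encodes prothymosin alpha, at a distance of 0.26, and Ube2e2 at 0.36. Nearest to Nqo1 were Pck1, the gluconeogenic carboxykinase, at 0.23 and Sub1 at 0.25. Sqstm1 had much closer neighbours, Uox, the urate oxidase of peroxisomes, at 0.051 and Cp, ceruloplasmin, at 0.12. Uox had 0.24, -0.81, 0.31 and -0.77 on arrays 1 to 4, almost the values of Sqstm1.

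Ratios cannot show whether a cell type's markers are present, so the tissue label could be checked only through marker ratios. In the mean over dye orientations 2 of 8 measured hepatocyte markers passed, where 3.92% of features did. Both were positive, led by Ttr at 0.23. Positive means were found in 7 of the 8, against 52.6% of features, and the 8 ranged from -0.095 to 0.23. None of 4 bile duct markers passed (largest Cd24 at -0.065), none of 2 myeloid and lymphoid markers (Fcgr2b at -0.12), none of 7 endothelial, stellate and fibroblast markers (Timp1 at -0.095), and the 1 platelet marker, Pf4, stood at 0.0098. Of these 14 genes 1, Fcgr2b, had an unadjusted p under 0.05 in limma. With arrays centred, 7 of the 8 hepatocyte markers thus lay on the positive side with Gpx2 and Nqo1. That side depends on where 0 is set, and the part of these markers in those values was not tested. In the orientation contrast, where 86.5% of features passed, 6 of 8 hepatocyte markers passed (median 0.31, range -0.31 to 0.57). All 4 bile duct markers passed (median -0.72, range -0.76 to 0.36), as did the 2 myeloid and lymphoid markers (-0.42 and 0.25). Of the endothelial, stellate and fibroblast markers 6 of 7 passed (median -0.27, range -0.56 to 0.46), and Pf4 passed at -0.53. The median hepatocyte marker thus had a positive contrast, as had the transferases and dismutases, but the list was not uniform. Serpina1 (-0.31) passed on the negative side, and Cyp2e1 and Pck1 (0.022 each) did not pass. From the other marker lists Vim (0.46), Aqp1 (0.36) and Fcgr2b (0.25) were positive, and the rest were negative. The part of cell type in the values of the members was not tested.

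**Figure D5:**
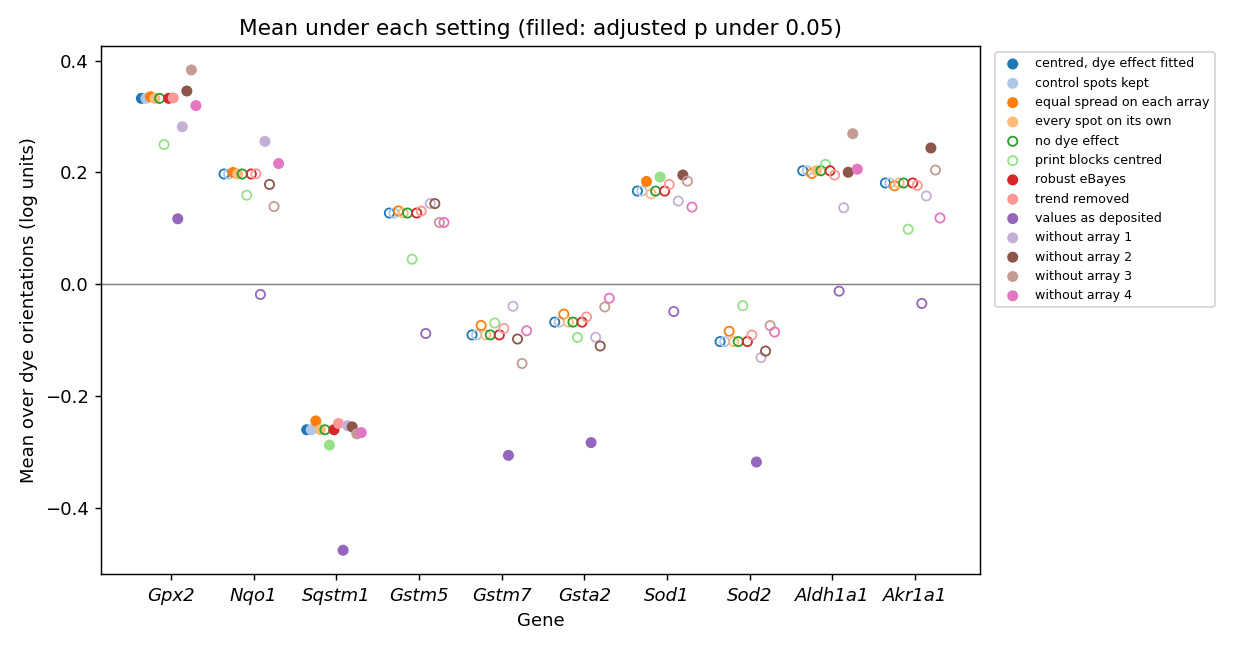
Mean over dye orientations (log units, y axis) of each member (x axis) under each processing setting, with filled points where the adjusted p is under 0.05. Sqstm1 stays between -0.29 and -0.24 in every centred setting, and the points as deposited lie lowest for every member.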

How the data were processed

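The authors deposited 1 log ratio per spot and array, with 0 missing values. Scanner, background correction, normalization, base and direction are not stated by the labels or the file, nor is brightness, so the number of arrays, 4, limits the precision. Spots form 16 blocks of 121. The 18 positions per block without annotation in any block (288 spots) were left out as control spots. Of 1648 gene spots 1432 had 1 symbol in the platform annotation (1429 with an Entrez identifier found in the rat gene table), 19 had several genes and 197 had none. Arrays were centred on their gene-spot median and spots of 1 symbol were averaged.

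Differences were tested in limma 3.58.1 (R 4.3.3; lmFit and eBayes, two-sided) with an intercept and a dye term, 2 residual degrees of freedom, and Benjamini-Hochberg adjustment over 1174 features at 0.05, and the fit was tested on simulated data. Members, lists, tests and alternatives were chosen with earlier results of these data known. Named genes were all members, pathway genes past the threshold or else the largest of each list, the largest marker of each list, and the 2 nearest genes to each inducible member. Any further gene was chosen after its values had been seen. Alternatives were the deposited zero, equal spread, block centring, no dye effect, robust eBayes, single spots, control spots kept and each array left out. Removal of a lowess trend of the mean against the contrast was added after seeing the data. Figures were drawn with matplotlib 3.10.9.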

Additional observations from a re-analysis of the deposited data

How the results depend on the processing

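The counts moved most. In the mean over dye orientations, 46 features and 2 members passed in limma. Without the dye effect 0 features and 0 members passed, as deposited 1061 and 5, with every spot on its own 87 spots and 4 members, and with control spots kept 101 features. With single spots, Sod1 was counted by its middle spot, which did not pass, although its spot at 0.19 did (limma adjusted p = 0.0426). With equal spread 56 features and 4 members passed. With 1 array left out, between 28 (without array 3) and 86 (without array 2) features and between 3 and 5 members passed. Gpx2 and Sqstm1 passed in all 4 of those fits, in which the lone array of its orientation is assumed to vary like the others.

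The inducible minus constitutive difference was 0.25 with equal spread, 0.20 with blocks centred, 0.26 with the trend removed and 0.18 to 0.29 with 1 array left out. In the orientation contrast it was -0.48, -0.43 and, with 1 array left out, -0.49 to -0.39. As deposited, the mean turned for Nqo1 (-0.018), Aldh1a1 (-0.012), Akr1a1 (-0.034), Sod1 (-0.049) and Gstm5 (-0.088). The contrast turned for Gpx2 (-0.45), Nqo1 (-0.46), Gsta2 (-0.12) and Gstm5 (-0.38), and with blocks centred for Gpx2 (-0.038). Each of these follows from moving the zero. Each log ratio already pairs both pools on 1 array, and no further pairing between arrays was made.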
